A study of Mus musculus with 4 samples.

Results

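Markers of enteric neurons and glia were followed in the mouse colon after deletion of *Rspo3*, a secreted protein that enhances Wnt signalling, and were set against sorted colon epithelium. The 8 genes described are *S100b*, *Sox10*, *Elavl4*, *Ret*, *Uchl1*, *Snap25*, *Vip* and *Bex1*. They were found by their gene name among the gene probes of the array and make up 13 of 41174 probes, or 8 of 27376 gene names. *Bex1* was chosen by its log2 ratios of KO over control, which had been seen below 0 in both pairs of mice, so those ratios are a description and were not tested.

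Expression was measured on 4 dual-color arrays. On 2 of them, RNA of distal colon, as the labels name the tissue, of a *Rspo3* KO mouse was hybridised against RNA of a control mouse, with 1 mouse in each channel and the dyes reversed between the arrays, which gives 2 pairs. The KO mice were *Myh11CreErt2/Rspo3* fl/fl and were taken 2 weeks after tamoxifen, and the controls were littermates with the same *Myh11CreErt2* driver and intact *Rspo3* (+/+). The driver deletes *Rspo3* only in cells that express *Myh11*, that is, smooth muscle cells and myofibroblasts, and not in neurons, glia or epithelium. The other 2 arrays compared tdTomato-positive (Axin2+) with tdTomato-negative (Axin2−) epithelial cells of *Axin2CreErt2/Rosa26-tdTomato* mice, sorted for the epithelial surface marker ESA a day after tamoxifen. These cells were pooled from 3 mice and the same 2 pools lie on both arrays, which count as 1 replicate. All mice were male, C57BL/6 and 6 to 8 weeks old, and received tamoxifen at 4 mg per 25 g bodyweight in corn oil. Labels and methods give different extraction kits for the colon, and the methods name the tissue as colon in one place and as colon epithelium in another.

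The enteric nervous system is a network of neurons and glia within the gut wall, in a plexus between the muscle layers and in a plexus below the mucosa. Its cells come from the neural crest, and RET, a receptor tyrosine kinase for ligands of the GDNF family, is required for crest cells to populate the gut. Enteric neurons drive motility and secretion through acetylcholine, nitric oxide and peptides such as VIP, whereas enteric glia, marked by S100B and SOX10, lie around the neurons and extend into the mucosa. Epithelial enteroendocrine cells share part of the vesicle machinery of neurons.

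Sequences of some of the probes are printed below. The main *Uchl1* values come from the brighter *Uchl1* probe, which is not printed. The *Bex1* and *Bex4* probes are shown because related BEX genes could share signal, and capitals mark the longest run of bases the pair of probes has in common. The *S100b* and *Uchl1* probes are shown as the probes of a glial and a neuronal marker, the latter being the dimmer of 2 *Uchl1* probes, and carry no capitals. Positions are those listed in the array files for mm9.
*Bex1*, chrX:132749067-132749124, minus strand: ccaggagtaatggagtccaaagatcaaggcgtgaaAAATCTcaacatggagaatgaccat
*Bex4*, chrX:132674703-132674762, plus strand: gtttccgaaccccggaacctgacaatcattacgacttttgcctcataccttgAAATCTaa
*S100b*, chr10:75722709-75722768, plus strand: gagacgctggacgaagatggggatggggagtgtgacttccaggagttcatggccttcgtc
*Uchl1*, chr5:67073886-67074977, plus strand: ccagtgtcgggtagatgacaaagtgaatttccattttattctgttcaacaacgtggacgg
The listed span of the *Uchl1* probe is longer than its 60 bases. The *Bex1* probe shared a run of at most 6 bases with the *Bex4* probe and of at most 5 with the probes of *Bex2* and *Bex3*. No other of the 41174 gene probes held a run of 16 bases of the *Bex1* probe on either strand, and the same was true of the *Bex4* probe. Probes were compared only with probes and not with transcripts, so binding of related BEX transcripts by these probes was not tested.

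In whole colon, 7 of the 8 genes were measured. This means that on each of the 2 arrays the brightest probe kept a value once outlier spots were left out, and that at least 1 of its channels stood well above background. The exception was *Ret*, whose single probe lies in 10 spots and stood at background in all 4 colon channels and all 4 sorted channels. Levels are given as normalised log2 intensity, a scale on which 1 unit is a doubling, and they are compared between samples of a probe and not between probes. Over all genes, 15372 were measured on the *Rspo3* KO arrays, where 53.6% to 60.3% of gene spots were well above background per channel. Across genes, which are no independent replicates, the log2 ratios of the 2 pairs had a Pearson's r of 0.033 and a Spearman's rho of −0.12. The median SD between pairs was 0.24 and the median of the mean log2 ratio over all genes was −0.012. *Rspo3* itself could not check the labels. One of its probes was well above background only on the array of pair 2, with log2 ratios of KO over control of 0.10 and 0.17, and the other on neither array.

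None of the neuron or glia markers other than *Bex1* was lower in both KO mice. Of these 6 measured genes, 3 were higher in both pairs (*Sox10*, *Snap25* and *Vip*) and 3 went opposite ways (*S100b*, *Elavl4* and *Uchl1*), whereas among all genes 23.9% were lower and 20.3% were higher in both pairs. No adjusted p of the 6 was under the threshold of 0.05, each being 0.9997 with limma and Benjamini-Hochberg adjustment over 15372 genes, against 37 genes or 0.241% called overall. A bulk measurement cannot tell fewer cells of a type from less RNA per cell, and with 2 pairs these values do not show that neurons and glia were unchanged.

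**Figure D1:**
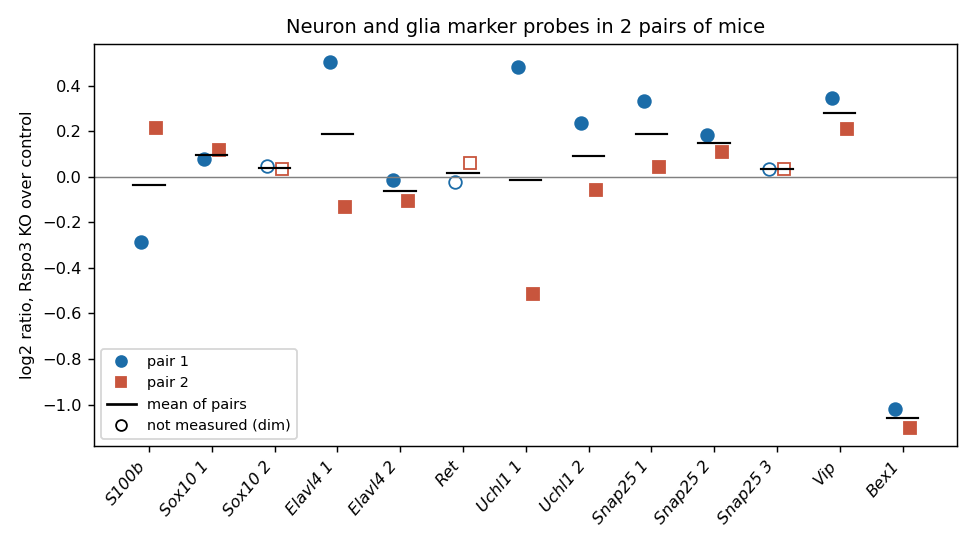
Log2 ratio of *Rspo3* KO over control for each of the 13 probes of the 8 genes; circles are pair 1, squares pair 2, horizontal bars the mean of the pairs, open symbols probes not measured, and numbers after a name count the probes of a gene from the brightest. Only *Bex1*, at −1.02 and −1.10, was far below 0 in both pairs.

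Of the glial genes, *S100b* encodes a calcium-binding protein and *Sox10* a transcription factor of neural crest and glia. The level of *S100b* was 9.29 and 8.97 in the control mice and 9.01 and 9.18 in the KO mice of pairs 1 and 2, so that the groups overlapped. Its log2 ratios of −0.29 and 0.21 gave a mean of −0.036, with a 95% interval from limma of −0.60 to 0.53. *Sox10* was dim, at 6.79 and 6.70 in the controls and 6.87 and 6.82 in the KO mice. Both of its KO values lay above both controls, and the mean ratio of 0.097 had an interval from −0.43 to 0.62. The share of all genes with such a separation of 2 KO from 2 control mice was not counted, here or for the genes below, so it is only a description. A second *Sox10* probe stood at background in all 8 channels.

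Of the neuronal genes, *Elavl4* encodes an RNA-binding protein of the Hu family, which is widely used to count enteric neurons. Its level was 8.76 and 9.19 in the controls and 9.26 and 9.06 in the KO mice, so that the groups overlapped. The log2 ratios were 0.50 and −0.13 (mean 0.19, 95% interval −0.40 to 0.78), and those of a second, dimmer probe were −0.015 and −0.11. The means of the 2 *Elavl4* probes thus differed in sign.

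*Uchl1* encodes the neuronal ubiquitin hydrolase PGP9.5. Its level was 12.07 and 12.10 in the controls and 12.55 and 11.58 in the KO mice, 1 of which lay above and the other below both controls. The ratio was 0.48 in pair 1, where the KO RNA carried Cy5, and −0.52 in pair 2, where it carried Cy3, so the Cy5 channel was the brighter on both arrays after normalisation. The mean was −0.017 (95% interval −0.69 to 0.66), the widest interval of the 6 genes. The dimmer *Uchl1* probe shown above had ratios of 0.24 and −0.058.

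*Snap25*, a membrane protein of the complex that fuses synaptic vesicles, had levels of 9.13 and 9.03 in the controls and 9.46 and 9.07 in the KO mice, and the groups overlapped. Its ratios were 0.33 and 0.041 (mean 0.19, 95% interval −0.35 to 0.73). A second probe, which shares 40 bases with the first and is no independent measurement, had ratios of 0.18 and 0.11, and the last of the *Snap25* probes stood at background. *Vip*, the peptide of inhibitory motor and secretomotor neurons, had levels of 9.64 and 9.73 in the controls and 9.99 and 9.95 in the KO mice, the KO mice being above both controls. The mean *Vip* ratio, 0.28 from 0.34 and 0.21, had an interval of −0.25 to 0.81. It was the highest mean ratio of the 6 tested genes.

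*Bex1*, a small adaptor protein of the brain-expressed X-linked (BEX) family, moved apart from the other markers. Its level was 7.40 and 8.21 in the controls and 6.38 and 7.11 in the KO mice, so that both KO mice lay below both controls. The log2 ratios were −1.02 and −1.10 (mean −1.06, SD 0.058, n = 2 pairs), and *Bex1* is 1 of 379 genes, 2.47% of all, that were lower in both pairs with a mean past 1.5-fold. The signal was weak in the KO mice: in pair 1 the mean spot intensity was 149 over a local background of 87.5, and in pair 2 it was 115 over 31.0. In the controls it was 108 over 29.5 and 709 over 89.0. The *Bex1* difference depended on the background correction. With the background fitted to all spots its ratios were −0.093 in pair 1 and −1.10 in pair 2 (mean −0.60), and with the log ratios of the extraction software they were −2.46 and −1.39 (mean −1.93).

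**Figure D2:**
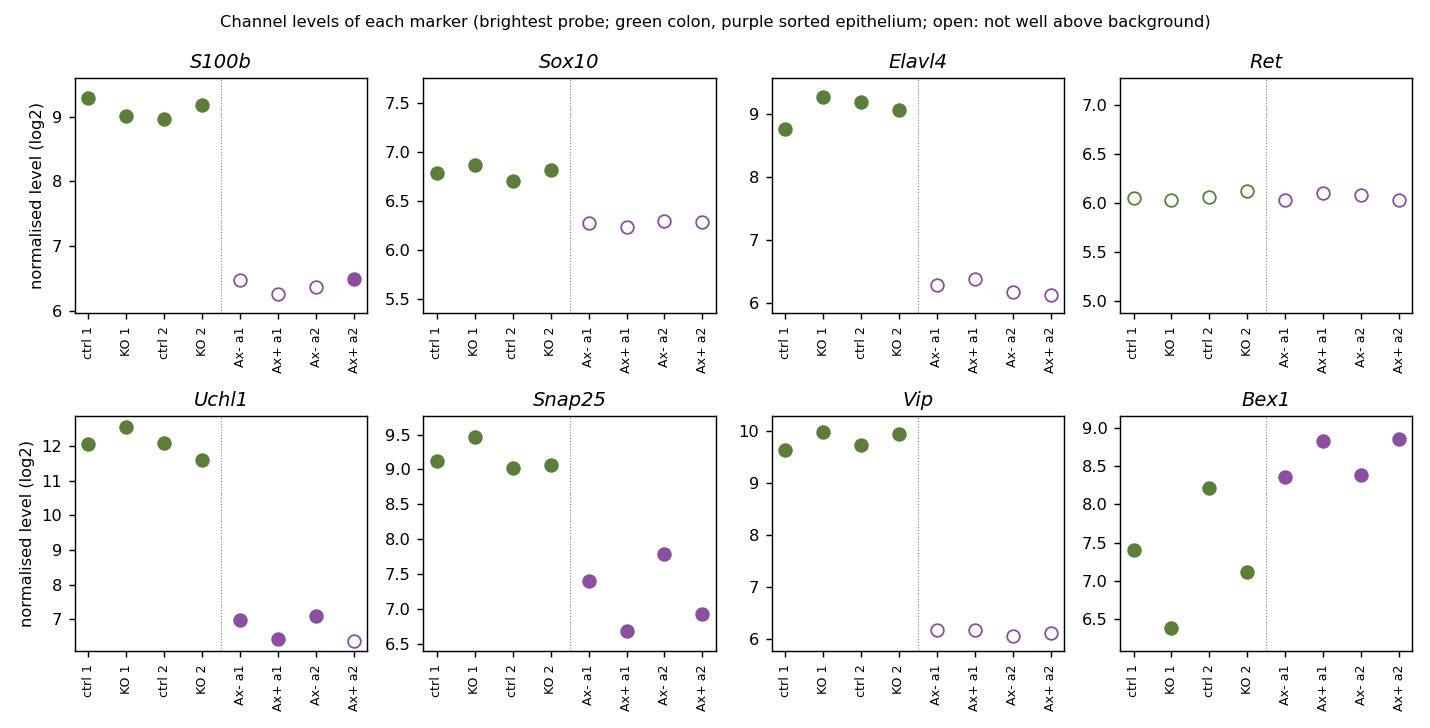
Normalised log2 level of the brightest probe of each gene in the 4 colon channels (green) and the 4 sorted epithelial channels (purple; Ax+ and Ax− are the Axin2+ and Axin2− pools on arrays a1 and a2), each panel with its own axis and open symbols for channels not well above background. *Bex1* is the panel in which the sorted cells lie above the colon, and *Ret* the panel in which all 8 symbols are open.

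Sorted epithelial cells served as a comparison in which neurons and glia should be absent. *Sox10*, *Elavl4* and *Vip* were well above background in none of the 4 sorted channels, which was true of 10% of the genes measured in colon. *S100b* was above background in 1 of 4 sorted channels, *Uchl1* in 3, and *Snap25* and *Bex1* in all 4. The tissue, the extraction and the slide differ together between the experiments and cannot be told apart, so the differences below are descriptions.

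For 6 of the 7 measured genes, all 4 colon channels lay above all 4 sorted channels, which held for 38.9% of all genes. *Uchl1* had a mean of 12.07 ± 0.40 (SD, n = 4 mice, KO and control together) in colon and a range of 6.37 to 7.08 in sorted cells, of which 1 of 4 channels was not well above background, and the means differed 41.1-fold. *Vip*, at 9.83 ± 0.17 in colon, was 12.9-fold higher there, and *Elavl4*, at 9.07 ± 0.22, 7.09-fold. For these genes the sorted level was the lowest signal well above background or, where higher, the dim signal itself. Some channels above that lowest signal were still not well above background, for example *Elavl4* at 6.37. The folds are thus no strict lower bounds, and they hold for the background correction used here. The mean of *S100b* was 6.56-fold higher in colon, with 3 of 4 sorted channels at background, that of *Snap25* 3.92-fold and that of *Sox10*, with all 4 sorted channels at background, 1.43-fold. The dimmer probes of *Uchl1* and *Elavl4* gave 2.99-fold and 1.40-fold, well below the bright probes of the same genes.

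*Bex1* ran the other way. Its 4 colon levels, from 6.38 to 8.21, all lay below its 4 sorted levels, from 8.35 to 8.85, and the mean was 2.51-fold higher in the sorted cells. The share of all genes with all colon levels below all sorted levels was not counted, so this is only a description. The low KO levels for which *Bex1* was chosen enter this mean, and against the 2 control mice alone the sorted cells were 1.74-fold higher, with the higher control 0.14 below the lowest sorted channel on the log2 scale. *Bex1*, which stands on the list of neuronal genes used here, thus gave signal in cells sorted for an epithelial marker. On the log2 scale, the difference of colon minus sorted cells ran from 4.69 to 6.02 for *Uchl1*, from 2.97 to 4.61 for *Vip*, from 2.24 to 3.63 for *Elavl4* and from −1.58 to −0.80 for *Bex1* under 5 other background corrections and scalings. The *Bex1* range takes KO and control mice together, so the low KO levels enter it. The difference from the controls alone was not computed under these settings.

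Within the sorted epithelium, 3 of the genes were measured. Set as Axin2+ over Axin2−, the log2 ratios of *Uchl1* were −0.56 and −0.71 and those of *Snap25* −0.72 and −0.86, with means past 1.5-fold lower, as for 6.92% of the 15879 genes measured there. With the software's log ratios the means were −3.13 and −2.17. *Bex1* was the higher in Axin2+ cells, at 0.48 and 0.47. Both arrays hold the same pools, so no test was made.

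Enteroendocrine genes, too, were lower in Axin2+ cells. Of the 20 measured there, 19 were lower on each array, against 41.7% of all genes, with a median log2 ratio of −0.68. *Rfx6* was the exception, with ratios of 0.11 and 0.057, and it is named here after its values were seen. Among them, *Chga*, a protein of secretory granules, had ratios of −2.80 and −2.63 and the hormone *Insl5* of −3.78 and −3.74. The 18 neuronal genes measured there had a median of −0.25, and 15 of them were lower and 2 higher on both arrays, *Bex1* being the highest. The part of enteroendocrine cells in the *Snap25* and *Uchl1* values was not tested.

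**Figure D3:**
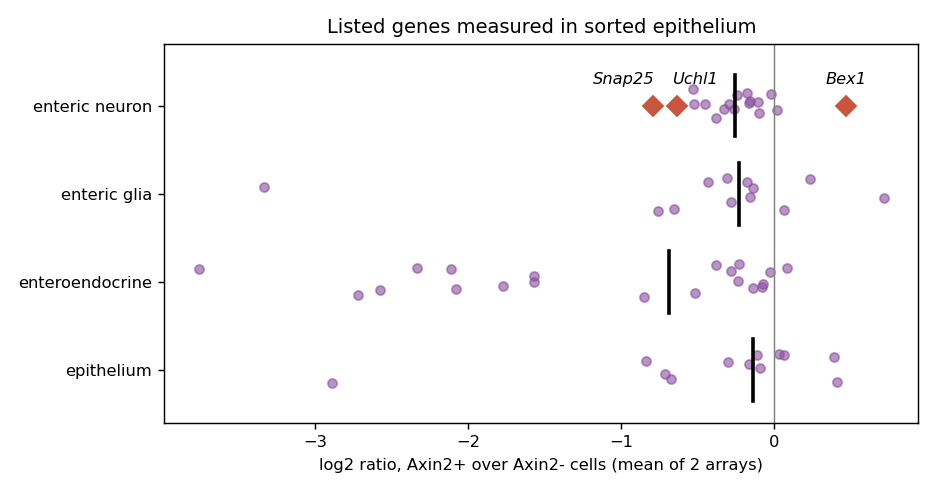
Mean log2 ratio of Axin2+ over Axin2− sorted epithelial cells (horizontal axis) for listed genes measured in sorted cells; points are genes, black bars the median of each list including the 3 labelled genes, and diamonds *Snap25*, *Uchl1* and *Bex1*. The enteroendocrine median lies at −0.68 and the neuronal median at −0.25, and *Bex1* is the neuronal gene farthest to the right of 0.

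Lists of cell type genes placed the 8 markers among other genes of the same cells. Beside the counts of every list below, 23.9% of all genes were lower and 20.3% higher in both pairs. Of 44 neuronal genes, 34 were measured in colon, of which 5 were lower and 11 higher in both pairs and 18 went opposite ways, with a median log2 ratio of 0.092. Among genes with 1 sign in both pairs, to which the lowest and highest ratios named for these lists are limited, the lowest besides *Bex1* were those of *Celf4*, an RNA-binding protein (−0.027 and −0.46), and *Map2*, a microtubule protein (−0.056 and −0.27). The highest were those of the glycolytic enzyme *Eno2* (0.27 and 0.41), the peptide precursor *Cartpt* (0.12 and 0.32) and *Tagln3* (0.19 and 0.24). *Tubb3*, a neuronal tubulin, had ratios of 0.22 and 0.065 and the intermediate filament *Prph* of 0.29 and −0.10. No gene of this list was called by limma, against 0.241% of all genes, so few calls could arise in a list of this size.

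Of 21 genes of transmitters and peptides, 16 were measured, with 1 lower and 5 higher in both pairs, against 23.9% and 20.3% of all genes, and a median of 0.099. *Tac1*, which encodes substance P, had ratios of 0.46 and 0.44 and *Nos1*, the neuronal nitric oxide synthase, 0.17 and 0.42, next to *Vip*. The lowest was that of *Ddc*, an enzyme of serotonin and dopamine synthesis (−0.15 and −0.22). *Chat*, which makes acetylcholine, was at background in all 4 colon channels, so that cholinergic neurons were not read by it. *Tac1* was also well above background in all 4 sorted channels.

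Of 28 glial genes, 22 were measured, with 1 lower and 7 higher in both pairs, against 23.9% and 20.3% of all genes, and a median of 0.074. *Gfap*, the intermediate filament of glia, had ratios of 0.098 and 0.35 and *Kcna1* of 0.30 and 0.12. *Mbp* was the gene lower in both (−0.39 and −0.36), and it was above background in all 4 sorted channels. The RET and endothelin list held 12 measured of 18 genes, 1 lower and 4 higher in both pairs, with a median of 0.084. *Ednrb*, the endothelin receptor of crest cells, had ratios of 0.82 and 0.24, *Zeb2*, a transcription factor of crest cells, 1.1 and 0.038, *Ntrk3* 0.054 and 0.19, and *Ece1*, which cuts endothelin precursors, −0.0063 and −0.024. None of the genes of these 3 lists was called, against 0.241% of all genes. The medians in pairs 1 and 2 alone were 0.12 and 0.012 for the neuronal list, 0.15 and 0.024 for transmitters, 0.027 and 0.11 for glia and −0.063 and 0.21 for the RET and endothelin list.

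Other cells of the gut wall, muscle among them, were read beside these lists. Of the smooth muscle genes 15 of 17 were measured, with 0 lower and 7 higher in both pairs, against 23.9% and 20.3% of all genes, and a median of 0.20. Of the fibroblast genes 11 of 12 were measured, with 0 lower, 3 higher and a median of 0.29, which was 0.22 in pair 1 and 0.10 in pair 2 alone. The smooth muscle median was 0.12 with the background fitted to all spots. The 5 genes of interstitial cells of Cajal had a median of −0.059 and the 7 measured epithelial genes, of 12, one of −0.035. The epithelial genes not measured, *Krt18*, *Krt19*, *Krt20*, *Lgals4* and *Cldn7*, had no value once outlier spots were left out, and were not dropped as dim. *Myh11*, which drives the deletion, had ratios of 0.15 and 0.40. Of the genes measured in colon, 8 of 15 muscle, 6 of 11 fibroblast and 17 of 34 neuronal genes were well above background in no sorted channel. That held for 10% of all genes. In all 4 sorted channels, 6 muscle, 5 fibroblast and 9 neuronal genes were well above background, so signal of these lists was not limited to whole colon. The part of tissue composition in the marker values was not tested.

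Enteroendocrine genes, in contrast to neuronal genes, were mostly lower. Of 16 measured of 21, 11 were lower and 3 higher in both pairs, against 23.9% and 20.3% of all genes, with a median of −0.26. None was called by limma, against 0.241% of all genes. The median was −0.14 with the background fitted to all spots, −0.16 without pair 1 and −0.17 without the filter on dim probes. *Gcg*, the glucagon precursor, had ratios of −0.68 and −0.55, *Pyy* of −0.69 and −0.12 and *Chga* of −1.14 and −0.17. The highest were *Cpe* (0.46 and 0.19), *Insl5* (0.30 and 0.098) and *Scg2* (0.019 and 0.094). *Scg2* was well above background in all 4 colon channels but in 0 of the 4 sorted channels, whereas *Cpe* and *Insl5* were so in all 4 sorted channels. No test compared the 2 lists.

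**Figure D4:**
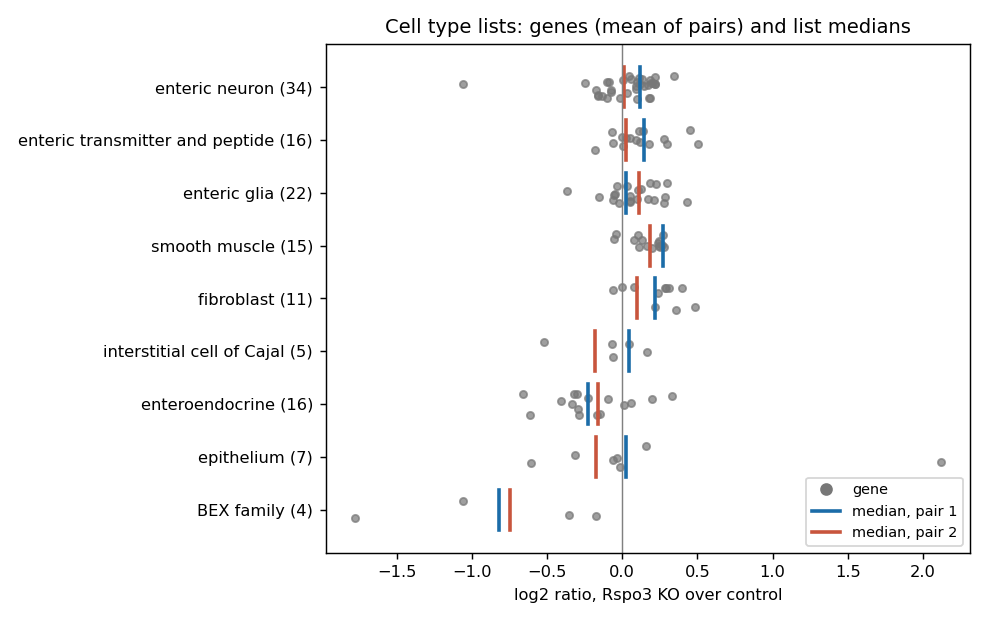
Mean log2 ratio of *Rspo3* KO over control (horizontal axis) for the measured genes of each cell type list, with the number of genes in brackets; blue and red bars are list medians in pairs 1 and 2. The neuronal point near −1 is *Bex1*, the medians of neuronal, transmitter and glial lists are above 0 in both pairs, and the epithelial point above 2 is the transcription factor *Cdx2*.

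One relative of *Bex1* in its gene family, *Bex4*, was lower in both KO mice and passed the threshold of the test, which was not made for *Bex1*. BEX proteins are short adaptors, some of which bind the neurotrophin receptor p75, and their genes lie on the X chromosome. Of 5 listed, *Bex1*, *Bex2*, *Bex3* and *Bex4* were on the array and well above background in all 8 channels. *Bex4* had levels of 9.99 and 10.44 in the controls and 8.51 and 8.37 in the KO mice, which did not overlap. Its log2 ratios were −1.49 and −2.07 (mean −1.78, SD 0.41), with a limma adjusted p of 0.0496, just under the threshold, which 0.241% of all genes passed. This call was lost with the background fitted to all spots, with median centring, without a filter on dim probes and with the mean over probes, and the mean ratio was below 0 in each of them. *Bex3* had ratios of −0.62 and −0.095 and *Bex2* of 0.050 and −0.39, and neither was called.

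In sorted cells the family split differently. *Bex4* had ratios of Axin2+ over Axin2− above 0 (0.31 and 0.51), as had *Bex3* (0.69 and 0.53) and *Bex1*, whereas those of *Bex2* were below 0 (−0.37 and −0.53). In level, *Bex4* was at 7.76 to 8.28 in the sorted channels, below all 4 colon channels, whereas *Bex3*, at 11.61 to 12.30, was above its colon levels of 10.48 to 11.09. All colon channels lay above all sorted channels for 38.9% of all genes, and the share for the reverse was not counted. *Bex2* was at 8.43 to 9.09 in sorted cells and at 9.79 to 10.19 in colon. *Bex1* and *Bex3* were thus lower in both KO mice and higher in sorted cells than in colon, although *Bex3* was not called, whereas *Bex4* was lower in both KO mice and in sorted cells.

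**Figure D5:**
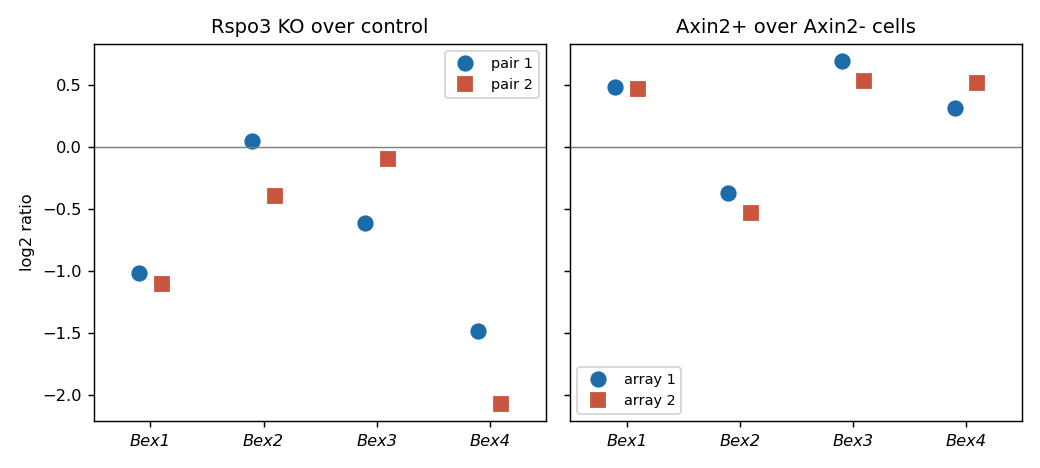
Log2 ratios of the 4 measured BEX genes in *Rspo3* KO over control colon (left; circles pair 1, squares pair 2) and in Axin2+ over Axin2− sorted cells (right; circles array 1, squares array 2). *Bex1* and *Bex4* are below −1 in both pairs of mice and above 0 in both sorted arrays.

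The genes nearest to *Bex1* were sought over the 8 channel levels, each gene centred on its own mean, among 15364 genes with all values. By Euclidean distance these were *Kyat3* (0.75), *Afm* (0.75), *St6galnac2* (0.81), *Slc16a12* (0.81) and *Msantd1* (0.82). All 5 were lower in both pairs, with log2 ratios from −1.23 to −0.28, levels that also enter the distance. None of them is on the neuronal, transmitter or glial list used here. These lists hold only 34, 16 and 22 of the 15372 genes measured, so this says little about *Bex1*. This nearness rests on 4 mice and 2 pools.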

How the data were processed

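The authors labelled total RNA, hybridised it to Agilent 4x44K arrays and ran Feature Extraction (version 11.5.1.1). The authors deposited uncorrected mean intensity and local background intensity per spot and dye, with a log10 ratio (Cy5 to Cy3). The deposited p-value of each ratio was not used. The series' deposited table holds the same log10 ratios. Probe positions are on mm9.

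From the intensities, limma (version 3.58.1, R version 4.3.3) corrected the background (normexp, offset 50, fitted without 66 and 6 spots with a background outlier on the arrays of pairs 1 and 2) and normalised log2 ratios by loess within arrays. This fit without outlier spots follows an earlier analysis of these data. Control spots were left out afterwards, as were 124 to 510 outlier spots per array. Channel levels were scaled between arrays by Aquantile. Spots were averaged per probe, genes were named through a RefSeq table of GRCm38.p6 (33752 of 41174 probes), and a gene stands for its brightest probe. The number of arrays limits the precision.

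The ratios of KO over control were tested against 0 (lmFit and eBayes, 15372 genes), after a check of the script on simulated data. The members and lists were chosen with earlier results of these data known. Named genes are every member, the 3 largest mean rises and falls per list among genes with 1 sign in both pairs, other measured BEX genes, *Nos1*, *Gfap*, *Prph*, *Tubb3* and the nearest 5 to *Bex1*. Some genes that this rule names are not reported here. Alternatives were other background corrections and normalisations, the software's ratios, other filters, the mean over probes, a dye term and each array left out.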

Additional observations from a re-analysis of the deposited data

How the results depend on the processing

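The number of genes called between *Rspo3* KO and control, 37, was 126 with an offset of 16, 70 without background correction, 1 with the background fitted to all spots, 128 with the software's log ratios or the series' table, 8 with median centring, 0 without a filter on dim probes (limma, with 1204 at an unadjusted p under 0.05), 5 with the mean over probes and 280 over 4 arrays with a dye term. It was 43 with both channels required above background. The median log2 ratio of the measured markers was 0.097 and ranged from 0.041 to 0.33 when either pair was left out, and the number of markers lower in every pair went from 1 to 2 and 3 in a single pair (2 without pair 2, 3 without pair 1). *S100b* changed sign to 0.056 with the background fitted to all spots and to 0.024 with median centring, and *Uchl1* to 0.042 with median centring and 0.036 with the mean over probes. The 6 tested markers had no adjusted p under 0.05 in any of 10 alternatives (limma, lowest 0.63 for *Vip*). *Bex4* ranged from −2.07 to −1.41. In sorted cells *Uchl1* reached −3.13 and *Snap25* −2.17 with the software's ratios, and both were below 0 in all alternatives in which they were measured. With both channels required above background, *Uchl1* was no longer measured in sorted cells. The causes were not tested.

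No paired analysis was possible beyond the test used, because each array holds the KO and the control of a pair and the test of its ratio against 0 is already paired. Signal over background limited the reading of *Ret* and *Chat*.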

Other observations

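Among the epithelial genes read beside the markers, *Cdx2*, a transcription factor of intestinal identity, was the gene called by limma, against 0.241% of all genes. It had log2 ratios of KO over control of 2.33 and 1.91 and a limma adjusted p of 0.020, and was higher in both pairs. The call was lost with the background fitted to all spots (adjusted p 0.25), with median centring (0.67), without the filter on dim probes (0.49) and with the mean over probes (0.064), all with limma. *Cdx2* was also above background in all 4 sorted channels, with ratios of Axin2+ over Axin2− cells of 0.31 and 0.52. *Elf3*, an epithelial transcription factor, had ratios of −0.61 and −0.60 in the KO mice and was not called.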
